A study of Macaca fascicularis with 6 samples.

Results

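APOBEC3A and APOBEC3C are cytidine deaminases of the AID/APOBEC family, and both had a row in each of the 6 gene tables of this single-cell series, 2 of 14623 genes in all. They were chosen by name after earlier results of these data were known, so their values over days are given as a description and without a test. The samples were corneal epithelium of wild-type Macaca fascicularis, the cynomolgus monkey. Each group had 2 samples: uninjured cornea, cornea on day 1 of healing after injury, and cornea on day 3 of healing. The labels name no drug or transgene, and they state neither the kind of injury nor whether replicates are separate animals. Single cells were barcoded with 10x Genomics chemistry, and HIT-scISOseq, which reads whole cDNA molecules, was used to tell the transcript isoforms of a gene apart.

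APOBEC3 enzymes remove an amino group from cytosine in single-stranded DNA or RNA, which turns the cytosine into uracil. They are known for restricting retroviruses and mobile elements, and the uracil they leave in DNA is removed by base excision repair. APOBEC3A and APOBEC3C each hold 1 deaminase domain, and several APOBEC3 genes are known to respond to interferon. APOBEC3A is best known from myeloid cells and keratinocytes, and it is also a known source of cytosine mutations in tumours. In the RefSeq gene table of the assembly T2T-MFA8v1.1 the APOBEC3 genes lay on 1 chromosome in the order APOBEC3H, APOBEC3G, APOBEC3F, APOBEC3D, APOBEC3C, APOBEC3B and APOBEC3A. The genome build of the deposited tables is not given in the sources used here, so no positions are printed. APOBEC3A and APOBEC3B are near-identical over long stretches and APOBEC3B was not listed in any of the gene tables, so the assignment of counts between them is uncertain.

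The 6 libraries held 1068 to 1565 cell barcodes each, 7895 in all, with total counts of 3733442 to 4928103 per library and median counts per barcode of 2462 to 4447. A total of 66 barcodes (0.836%) were called doublets by Scrublet, 68 held fewer than 500 counts, and both kinds were kept. In all, 8 barcode sequences occurred in more than 1 library, at most 2 between any 2 libraries. The defining markers of neutrophils (0 of 4 listed) and red blood cells (0 of 4 listed) were not listed, and those of lymphoid cells (3 of 8 listed) summed to 0 to 3.31 CPM (counts-per-million of the library) over the libraries. All 10 myeloid markers were listed and summed to 150 to 164 CPM before injury, 184 to 185 on day 1 and 157 to 183 on day 3. Most of this came from LYZ, followed by CD14 before injury and by CD68 on day 1 and day 3. The leukocyte gene PTPRC had 0 to 10 counts per sample. Markers of keratocytes or fibroblasts (6 of 7 listed) summed to 499 to 643 CPM before injury, 183 to 189 on day 1 and 695 to 700 on day 3. Melanocyte markers (6 of 6 listed) summed to 76.8 to 99.4, 21.7 to 30.3 and 24.4 to 33.5 CPM in the same order, those of corneal endothelium (2 of 3 listed) to 553 to 580, 651 to 694 and 364 to 383 CPM, and vascular markers (4 of 5 listed) to 1.46 to 5.28 CPM. The part of these cells in the results was not tested.

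APOBEC3A was lowest in the uninjured cornea, highest on day 1 and in between on day 3. The uninjured pair had 2324 and 2769 counts, the day 1 pair 64481 and 51673, and the day 3 pair 22300 and 19437. Of all counts in a library this was 0.0549% and 0.0576%, 1.31% and 1.38%, and 0.456% and 0.424% in the same order. No group overlapped another. A sum over the cells of a sample cannot tell a change in the mix of cells from a change in the RNA per cell; levels within clusters are given further on.

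On the CPM scale after TMM scaling, which adjusts library totals for composition, APOBEC3A was at 463 and 483 CPM in the uninjured pair. The day 1 pair was at 14210 and 14338 CPM and the day 3 pair at 5135 and 4766 CPM. The means were 473 ± 14.1 CPM (SD, n = 2) before injury, 14274 ± 90.4 (n = 2) on day 1 and 4951 ± 261 (n = 2) on day 3. The log2 change from uninjured to day 1 was 4.92 (SE 0.088), a 30.2-fold difference. From uninjured to day 3 it was 3.39 (SE 0.082), or 10.5-fold, and day 3 was 2.88-fold lower than day 1 (log2 change -1.53, SE 0.076). The distance between groups was far larger than the distance between the samples of a group.

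APOBEC3C followed the same order of days at a much smaller number of counts. The uninjured pair had 41 and 51 counts, the day 1 pair 275 and 233, and the day 3 pair 91 and 102. After TMM scaling these were 8.17 and 8.90 CPM, 60.6 and 64.7 CPM, and 21.0 and 25 CPM. The group means were 8.53 ± 0.514 CPM (SD, n = 2), 62.6 ± 2.86 (n = 2) and 23.0 ± 2.87 (n = 2), and the groups did not overlap. With 2 samples per group, a lack of overlap alone does not set APOBEC3A or APOBEC3C apart from other genes. Day 1 exceeded uninjured by a log2 change of 2.87 (SE 0.142), or 7.29-fold. Day 3 exceeded uninjured by 1.42 (SE 0.166), or 2.68-fold, and was 2.72-fold lower than day 1. With library totals alone as the scale, the log2 changes from uninjured were smaller, at 4.58 and 2.97 for APOBEC3A and at 2.53 and 1.00 for APOBEC3C at days 1 and 3. That scale shifts the median of all genes to -0.40 at day 1 and -0.46 at day 3, against -0.06 and -0.03 with TMM.

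**Figure D1:**
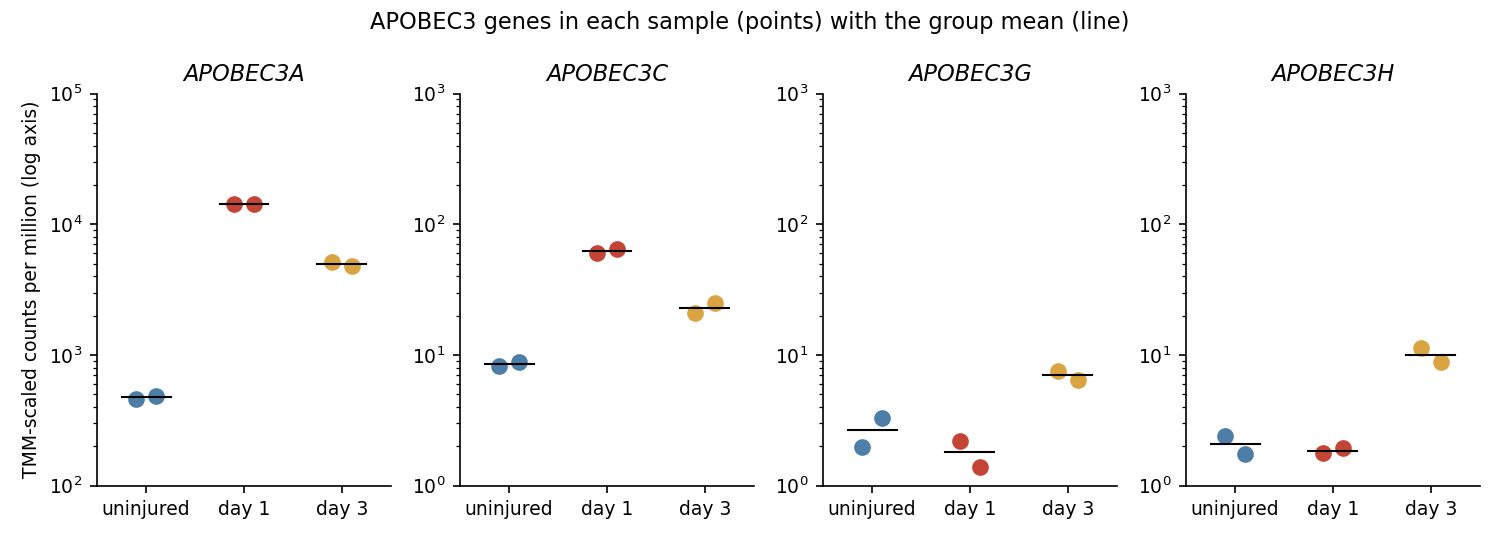
TMM-scaled CPM (log axis) of the 4 APOBEC3 genes that could be fitted, with 1 point per sample and a line at the group mean of 2 samples. APOBEC3A and APOBEC3C were highest at day 1 and lower at day 3, whereas APOBEC3G and APOBEC3H were highest at day 3.

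The other listed members of the family had another time course. Of the 11 family genes searched, 5 were listed: APOBEC3A, APOBEC3C, APOBEC3F, APOBEC3G and APOBEC3H. APOBEC3H, another enzyme with 1 deaminase domain, had 12 and 10 counts in the uninjured pair, 8 and 7 on day 1, and 49 and 36 on day 3. APOBEC3G, known for its action on HIV-1, had 10 and 19, then 10 and 5, then 33 and 26 counts. For both genes the day 3 samples lay above the other 4. In edgeR's quasi-likelihood test with Benjamini-Hochberg adjustment over 12294 genes, neither gene passed between uninjured and day 1 (adjusted p = 0.799 for APOBEC3H and 0.344 for APOBEC3G). A pass was common: 62.2% of all genes tested passed between uninjured and day 1, 55.2% between uninjured and day 3, and 59.3% between day 1 and day 3. Of the genes that passed, 49.1%, 52.2% and 51.4% were higher on the later day, against 29.1%, 24.2% and 46.0% with library totals alone and 55.1%, 64.1% and 53.7% in DESeq2. APOBEC3H rose 4.87-fold from uninjured to day 3 (log2 change 2.28, SE 0.319; edgeR adjusted p = 9.4e-05) and 5.41-fold from day 1 to day 3 (adjusted p = 0.00011). APOBEC3G rose 2.59-fold from uninjured to day 3 (log2 change 1.37, SE 0.357; edgeR adjusted p = 0.0066) and 3.77-fold from day 1 to day 3 (adjusted p = 0.002). The first of these APOBEC3G calls was lost in DESeq2 (adjusted p = 0.167), without uninjured replicate 1 (edgeR adjusted p = 0.0501) and without day 3 replicate 1 (0.0669). On day 3 the conjunctival-like cluster described below held 24 and 21 of the APOBEC3H counts and 17 and 14 of the APOBEC3G counts. It had 313 and 314 cells, 28.6% and 29.4% of the cells. The much smaller superficial-like cluster, of 79 and 61 cells, held 9 and 6 APOBEC3H counts and 1 and 0 APOBEC3G counts. APOBEC3F had 7 counts in each uninjured sample, was not listed in the other 4 tables and was not tested.

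**Figure D2:**
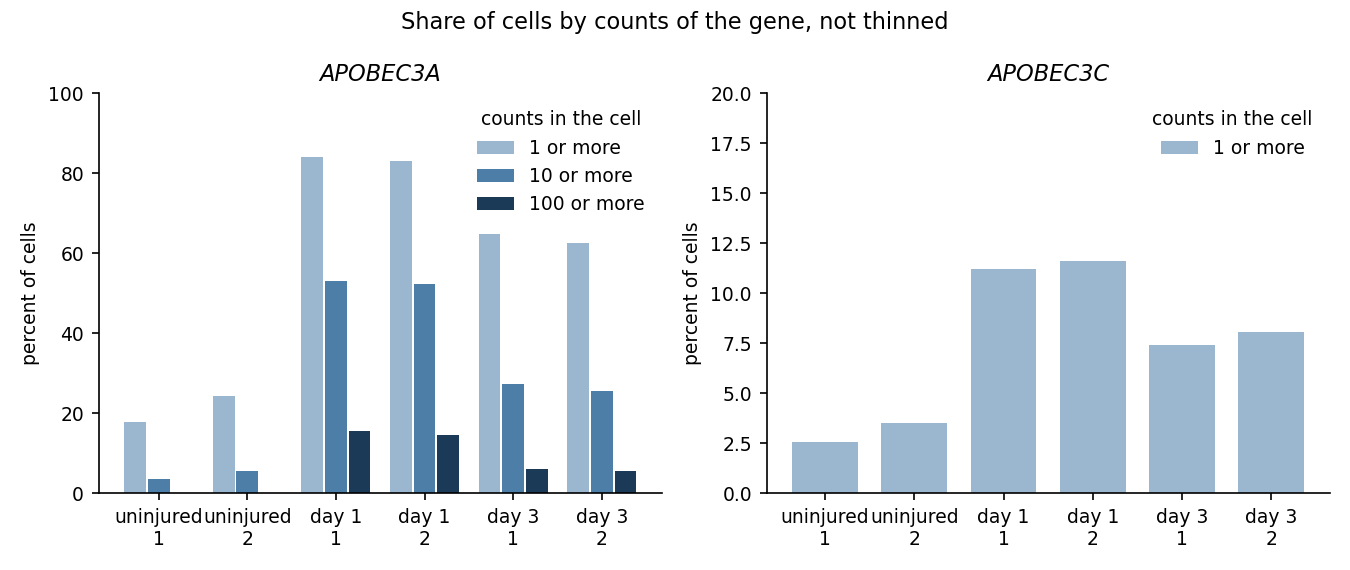
Percent of the cells of each sample with at least 1 count of APOBEC3A or APOBEC3C, and for APOBEC3A also with 10 or more and 100 or more counts, at full depth. At day 1, 84.2% and 83.0% of cells had an APOBEC3A count, while 11.2% and 11.6% had an APOBEC3C count.

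The share of cells with a count followed the same order. Each cell was thinned to 1000 counts, leaving out shallower cells (1063 to 1488 cells were kept per sample), so that depth was equal. An APOBEC3A count was then present in 11.1% and 14.8% of uninjured cells, 74.4% and 75.7% of day 1 cells, and 45.2% and 43.7% of day 3 cells. Without thinning the shares were 17.9% and 24.3%, 84.2% and 83.0%, and 64.9% and 62.6%. The exact binomial 95% intervals of these thinned APOBEC3A shares, which cover counting error only, did not overlap between groups; for the first uninjured and day 1 samples they were 9.54 to 12.8% and 72.1 to 76.7%. For APOBEC3C the thinned shares were 0.739% and 0.964% of uninjured cells, 4.43% and 5.25% of day 1 cells, and 1.85% and 1.69% of day 3 cells, and the intervals of uninjured and day 3 cells overlapped. The unthinned APOBEC3C shares were 2.56% and 3.53%, 11.2% and 11.6%, and 7.39% and 8.05%.

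Among cells with APOBEC3A the amount varied widely. At day 1, 53.2% and 52.3% of cells had 10 or more APOBEC3A counts and 15.5% and 14.4% had 100 or more. Before injury 3.45% and 5.50% of cells reached 10 counts and 0.128% and 0.141% reached 100. At day 3 the shares at 100 or more were 6.11% and 5.62%. The highest cell, at day 1, held 639 APOBEC3A counts, and APOBEC3A made up as much as 7.13% of the counts of a single cell. In uninjured samples the tenth of cells with the most APOBEC3A held 93.3% and 87.2% of its counts; at day 1 that share was 47.7% and 47.1%, and at day 3 it was 69.6% and 73.5%. No cell had more than 7 APOBEC3C counts.

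To place the genes among cell states, cells were clustered without any AID/APOBEC gene, and clusters were named from corneal marker lists. Most clusters came almost wholly from 1 day, apart from a basal-like cluster led by SLC12A7 that uninjured and day 1 samples shared. The differentiated-like class therefore consists of a KRT3 and CYP26A1 cluster in uninjured samples, a KRT3 and KRT24 cluster at day 1 and a KRT3 and KRT12 cluster at day 3; KRT3 and KRT12 are the keratins that define corneal epithelium. The conjunctival-like class likewise formed 1 cluster per day. KRT4 and AQP5 were among the leading genes of each, and S100A8 at day 1 and day 3 only. KRT4 was on the superficial-like marker list too, and AQP5 was on the differentiated-like list alone. Of 6 listed conjunctival-like markers, 4 were higher in the uninjured cluster and 6 in the day 1 and day 3 clusters. The basal-like class at day 3 was a separate cluster led by CXCL14 that also expressed COL17A1. Of 9 listed basal-like markers, 5 were higher in the SLC12A7 cluster and 6 in the day 3 cluster. None of them was among the 10 leading genes of the SLC12A7 cluster. KRT14, a basal-like marker, was a leading gene of the limbal-like clusters described below. A cluster stands for cells that resemble a type by these markers, and its levels are CPM of the counts of that cluster in that sample, without TMM scaling.

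In the uninjured cornea most APOBEC3A counts came from differentiated-like and conjunctival-like cells. The differentiated-like cluster was at 985 and 756 CPM and the conjunctival-like cluster at 757 and 1211 CPM, so these clusters overlapped. The limbal-like cluster, led by the limbal stem cell markers GPHA2 and PENK, was at 22.1 and 19.6 CPM, and the basal-like cluster at 16.3 and 17.9 CPM. Differentiated-like cells were 29.1% and 30.0% of the cells and held 70.7% and 53.6% of the APOBEC3A counts. Conjunctival-like cells were 12.3% and 14.8% of the cells and held 22.5% and 43.5% of the counts. An APOBEC3A count was found in 33.3% and 41.4% of differentiated-like cells (median depth 3586 and 4609 counts) and in 1.19% and 2.87% of limbal-like cells (median depth 1562 and 1801 counts).

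At day 1 the conjunctival-like cluster led, with 27493 and 29111 CPM and a count in 99.3% and 99.6% of its cells. It made up 18.6% and 17.8% of the cells and held 54.2% and 51.2% of the APOBEC3A counts. The differentiated-like cluster was at 12492 and 13568 CPM, with a count in 96.9% and 97.5% of cells. A day 1 cluster led by MMP1 and S100A2, limbal-like by 3 of 7 listed markers, was at 2204 and 2434 CPM. The basal-like cluster was at 797 and 641 CPM. The order of these clusters was the same in both day 1 samples, and no neighbours in it overlapped.

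At day 3 a small superficial-like cluster of 79 and 61 cells, led by PLAAT2, S100P and KRT78, stood at 20964 and 20918 CPM. All of its cells had an APOBEC3A count, with a median of 95 and 79 counts per cell, and with 7.21% and 5.71% of the cells it held 40.2% and 35.9% of the APOBEC3A counts. The conjunctival-like cluster was at 6582 and 6419 CPM and the differentiated-like cluster at 2073 and 1934 CPM. A cluster led by COL1A1, TNC and TOP2A was at 157 and 312 CPM, and the basal-like cluster was at 90.8 and 84.0 CPM. The order was again the same in both samples.

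APOBEC3C was placed differently. At day 1 its differentiated-like cluster was at 120 and 131 CPM and held 93.1% and 94.8% of all APOBEC3C counts, from 41.1% and 41.4% of the cells. The conjunctival-like cluster, which led for APOBEC3A, had 9 and 4 APOBEC3C counts, or 7.08 and 4.4 CPM. The basal-like cluster had 4 and 7 counts (7.0 and 15.6 CPM), and the MMP1 cluster 2 and 1. At day 3 the differentiated-like cluster again led, with 46 and 61 counts (32.3 and 46.5 CPM), 50.5% and 59.8% of the gene's counts. The superficial-like cluster, with the highest APOBEC3A level, had 5 and 2 APOBEC3C counts. In uninjured samples the differentiated-like cluster had 28 counts in each sample (16.8 and 14.3 CPM); the other clusters had 3 to 9 counts each, and their 95% Poisson intervals overlapped with it except for the limbal-like cluster in replicate 1 (3.40 CPM, interval 0.927 to 8.72, against 11.2 to 24.3).

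**Figure D3:**
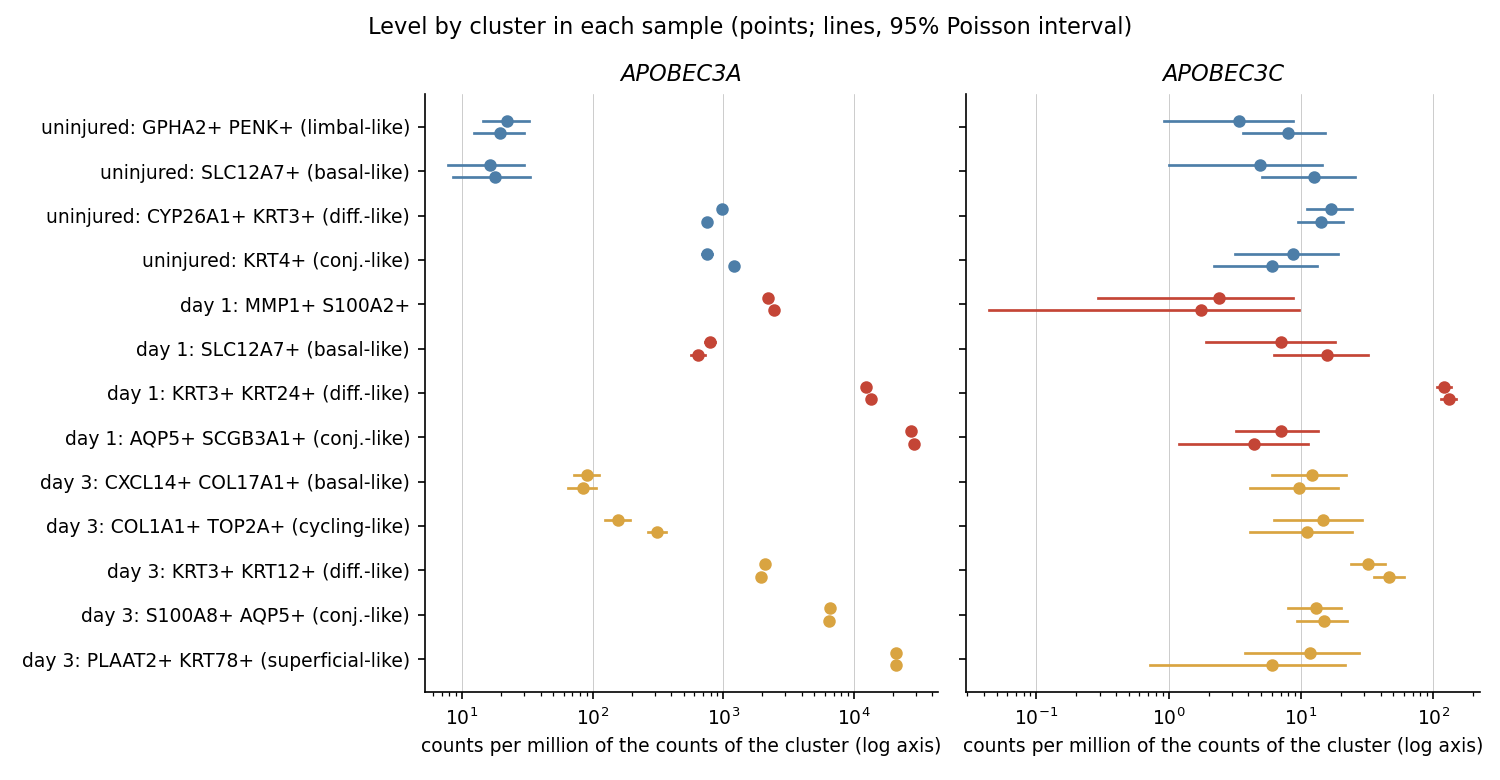
CPM of the cluster's counts (log axis) for APOBEC3A (left) and APOBEC3C (right) in clusters with at least 50 cells, with 1 point per sample and lines for the 95% Poisson interval, which covers counting error only. APOBEC3A was highest in conjunctival-like cells at day 1 and in superficial-like cells at day 3, and APOBEC3C in differentiated-like cells at both days. The superficial-like cluster reached 50 cells at day 3 only.

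Read by class, APOBEC3A was higher at day 1 than at day 3 and higher at day 3 than in uninjured samples in differentiated-like, conjunctival-like and basal-like cells alike. The superficial-like cluster held almost only day 3 cells and stood outside the differentiated-like class. The gene MUC22 was at 258 and 274 CPM in the day 1 differentiated-like cluster. At day 3 it was at 7.03 and 5.33 CPM in the differentiated-like cluster and 206 and 144 CPM in the superficial-like cluster. The part of this split in the fall of the differentiated-like class from day 1 to day 3 was not tested. The basal-like values were 16.3 and 17.9, 797 and 641, and 90.8 and 84.0 CPM in the order of uninjured, day 1 and day 3. The limbal-like clusters were at 22.1 and 19.6 CPM before injury and at 2204 and 2434 CPM on day 1. They had too few day 3 cells for a level. APOBEC3C in basal-like cells was at 4.89 and 12.5, 7.0 and 15.6, and 12.2 and 9.59 CPM, and these groups overlapped. Free RNA in the droplets can add counts of an abundant gene to cells that do not express it. At day 1 the basal-like level of APOBEC3A was 2.90% and 2.20% of that in the conjunctival-like cluster. Genes for comparison were picked after their values were seen. Of its own highest level, the conjunctival-like gene S100A8 reached 0.716% and 0.469% there. The conjunctival-like genes S100A9 and KRT4 reached 0.727% and 0.273%, and 0.410% and 0.128%. KRT24 of the differentiated-like cluster reached 10.0% and 10.4%, and MUC22, of the same cluster, 28.5% and 36.7%. At day 3 the basal-like level of APOBEC3A was 0.433% and 0.401% of that in the superficial-like cluster. In the same basal-like cells S100A8 reached 0.196% and 0.239% of its own highest level, and S100A9 0.268% and 0.277%. KRT4 reached 0.311% and 0.284%, KRT24 1.36% and 1.05%, and MUC22 0% in both samples. At day 1, 70.7% and 70.5% of basal-like cells had an APOBEC3A count (38.0% and 42.4% thinned). The part of free RNA in the basal-like values was not tested.

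Differentiated-like and basal-like cells were compared within each sample, on log2 of the ratio of CPM with 10 CPM added to both. APOBEC3A was higher in differentiated-like cells in 6 of 6 samples, with a mean log2 ratio of 4.50 ± 0.446 (SD, n = 6). For APOBEC3C the mean log2 ratio was 1.47 ± 1.06 (SD, n = 6), again higher in 6 of 6 samples, with a range from 0.13 in an uninjured sample to 2.93 in a day 1 sample. No test is given, since the genes were chosen with their levels in cell states known and the clusters, made without them, did use genes whose levels go with them, such as KRT3. With finer clusters or without doublets APOBEC3C was higher in 5 of 6 samples.

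The 14 myeloid-like cells, led by HLA-DRA and CD74, held 0 to 0.643% of the APOBEC3A counts of a sample. For APOBEC3C they held at most 1 count in any sample. Without them the log2 changes from uninjured were 4.91 on day 1 and 3.38 on day 3 for APOBEC3A, and 2.87 and 1.41 for APOBEC3C.

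The isoform tables show which APOBEC3A transcripts carried the counts. Tables of both uninjured samples and day 1 replicate 1 share 1 naming system, in which APOBEC3A had 11, 12 and 28 isoforms with 1960, 2224 and 56806 counts. Classes are part of the names. FSM isoforms match a known transcript in full and ISM isoforms in part; NIC isoforms combine known splice sites in another way, and NNC isoforms use at least 1 unknown splice site. The FSM isoform PB.155.352 had 1405 and 1522 counts in uninjured samples and 50485 at day 1. Its share of APOBEC3A isoform counts was 71.7% (exact binomial 95% interval 69.6 to 73.7) and 68.4% (66.5 to 70.4) in uninjured samples and 88.9% (88.6 to 89.1) at day 1. The interval covers counting error only, and with 1 day 1 library in this naming the difference has no replicate check.

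The isoforms differed in how far they stood above the uninjured samples. Relative to the gene table totals, without TMM scaling, PB.155.352 was 31.6 times (counting interval 30.5 to 32.8) the pooled level of the uninjured samples. On that scale the log2 change of the APOBEC3A gene at day 1 was 4.58, against 4.92 with TMM. The ratios given here are therefore lower than with TMM and are not comparable with the 30.2-fold difference of the gene. A ratio near 1 does not show that an isoform was unchanged. The NNC isoform PB.155.446 had 121 and 144 counts before injury and 4110 on day 1, a ratio of 28.4 (25.1 to 32.3). The NIC isoform PB.155.357, by contrast, had 80 and 91 counts before and 116 after, a ratio of 1.24 (0.974 to 1.58). The NNC isoform PB.155.358 had 87, 122 and 130 counts, a ratio of 1.14 (0.909 to 1.43). Between them lay the ISM isoform PB.155.366 at 10.8 (7.43 to 16.1) and the NIC isoforms PB.155.359 at 5.71 (4.77 to 6.86), PB.155.363 at 3.93 (3.30 to 4.69) and PB.155.361 at 2.54 (2.05 to 3.15). The 17 isoforms not listed in all 3 tables held 0.972% of the day 1 counts.

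**Figure D4:**
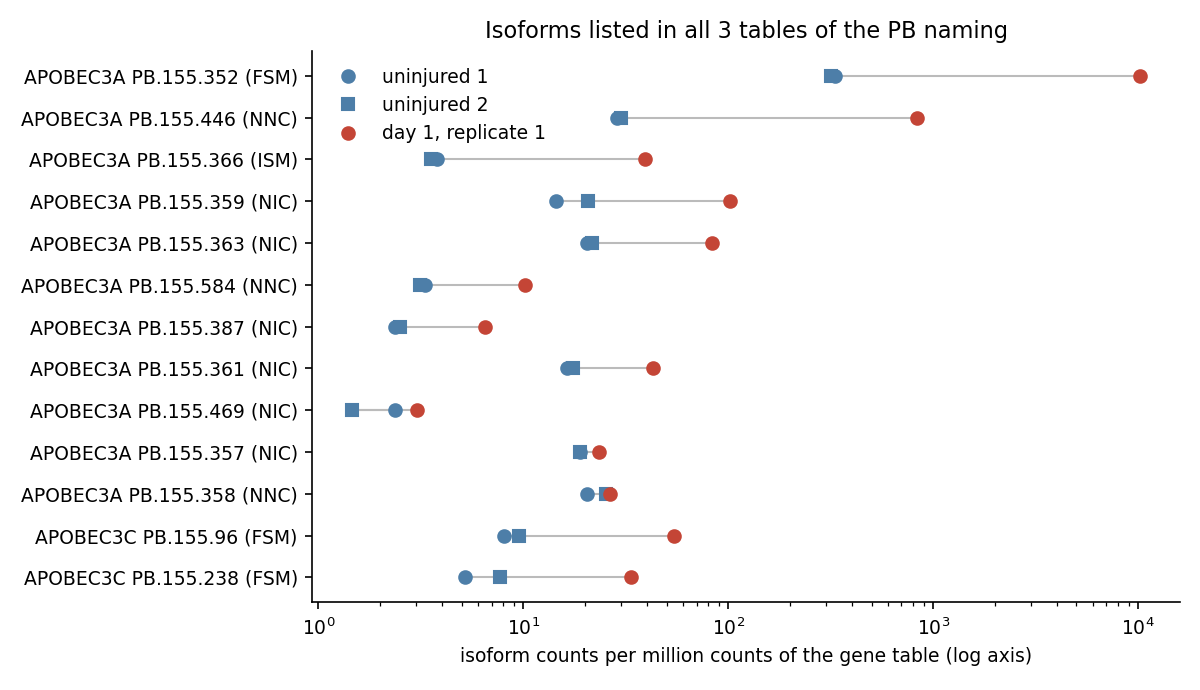
Isoform counts as CPM of the sample's gene table total (log axis) for the 11 APOBEC3A and 2 APOBEC3C isoforms listed in all 3 tables of 1 naming system, with the 2 uninjured samples and day 1 replicate 1. On this scale, without TMM, PB.155.352 and PB.155.446 stood furthest above the uninjured samples, and PB.155.357 and PB.155.358 lay close to them.

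By class, NIC isoforms together held 16.2% and 17.9% of uninjured APOBEC3A isoform counts and 2.26% at day 1, and NNC isoforms 11.3%, 12.6% and 7.95%. In uninjured samples PB.155.352 held 77.3% (75.1 to 79.5) and 72.7% (70.1 to 75.2) of the APOBEC3A isoform counts of differentiated-like cells. In conjunctival-like cells it held 50% (44.9 to 55.1) and 64.4% (61.3 to 67.5). At day 1 it held 87.1% to 89.8% in each of the 4 clusters. Across cells, PB.155.352 counts went with APOBEC3A gene counts with Pearson r of 0.979, 0.975 and 0.998 over 1565, 1417 and 1482 cells, which share library and depth. PB.155.352 had 1405, 1522 and 50485 counts in them, against 2324, 2769 and 64481 counts of the gene. The correlated counts were therefore not independent.

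APOBEC3C had 2 FSM isoforms in all 3 of these tables. PB.155.96 had 34, 46 and 267 counts, 6.12 times the uninjured level at day 1 (4.75 to 7.96), again relative to the gene table totals. PB.155.238 had 22, 37 and 165 counts, 5.13 times (3.79 to 7.03). The share of PB.155.96 was 60.7% (46.7 to 73.5), 55.4% (44.1 to 66.3) and 57.3% (52.7 to 61.8), and these intervals overlapped. Another FSM isoform, PB.155.222, was listed only at day 1 with 34 counts. The isoform counts of APOBEC3C exceeded its gene counts, at 137, 163 and 169 per 100 gene counts, so the gene and isoform tables did not assign the same reads to it. At day 1, PB.155.238 counts went with APOBEC3C gene counts over 1482 cells with r = 0.892 and PB.155.96 counts with r = 0.466.

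The tables of day 1 replicate 2 and the day 3 samples use Ensembl names, and in them each gene had 1 row. They share 1234 of 1267, 701 of 1096 and 679 of 1068 barcodes with the gene tables, and the isoform counts below are for those barcodes. For APOBEC3A, ENSMFAT00000043663 had 191, 40 and 42 counts, or 0.384, 0.366 and 0.461 per 100 APOBEC3A gene counts of the same barcodes. Over all genes these tables held 80.8, 81.5 and 82.8 isoform counts per 100 gene counts. The APOBEC3A counts of the gene tables were therefore almost absent from the named APOBEC3A row. For APOBEC3C, ENSMFAT00000050443 had 146, 22 and 24 counts, or 63.8, 51.2 and 55.8 per 100 gene counts. Rows with at least 100 counts were ranked by how closely their counts per cell went with APOBEC3A gene counts. The named APOBEC3A row, with 40 and 42 counts in the day 3 samples, was not ranked there. In each of the 3 tables the closest ranked row belonged to an unnamed gene of the class antisense, with 2881, 650 and 561 counts. Its r was 0.886, 0.827 and 0.860 over 1234, 701 and 679 cells. Rows of other genes came next, SERPINB1 with r = 0.807 in day 1 replicate 2 and LGALS3 with 0.824 and 0.783 at day 3. The antisense row held 5.79, 5.95 and 6.16 counts per 100 APOBEC3A gene counts, and whether it holds APOBEC3A transcripts was not tested. No isoform was compared between the 2 naming systems.

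Genes that act around cytidine deamination were read from lists. Of 7 other nucleic acid deaminases tested, edgeR called 1 higher and 2 lower on day 1 than before injury, 2 higher and 1 lower on day 3, and 3 higher and 1 lower on day 3 than on day 1. These counts lie near or under the shares of all genes called. CDA, which deaminates free cytidine, went from 4.0 to 9.27 and 21.2 CPM (edgeR adjusted p = 0.0016 at day 1 and 2.0e-06 at day 3). CDADC1, a cytidine deaminase domain gene, fell 2.62-fold at day 1 (edgeR adjusted p = 0.0014). DCTD, the deoxycytidylate deaminase, fell 1.65-fold at day 1 (adjusted p = 0.0034) and rose 1.61-fold from day 1 to day 3 (adjusted p = 0.0061). The calls of CDADC1 and DCTD were lost in DESeq2 (adjusted p = 0.0814 to 0.101). ADAR, which edits adenosine in RNA, was at 62.4, 61.6 and 80.8 CPM; its higher level on day 3 than before injury passed in edgeR (adjusted p = 0.0042) but not in DESeq2 (0.123), and its log2 change was -0.04 with library totals alone.

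Of the 17 genes of uracil removal and base excision repair that were tested, 2 were higher and 9 lower on day 1 than before injury in edgeR, with a median log2 change of -0.67 against -0.06 over all genes. Of all genes 30.5% were higher and 31.7% lower there, and the 11 of 17 called lie near the 62.2% of all genes. UNG, the main uracil DNA glycosylase, fell 2.83-fold at day 1 (5.90 to 2.02 CPM, edgeR adjusted p = 0.0058) and rose 2.94-fold from day 1 to day 3 (adjusted p = 0.0062), but neither call held in DESeq2 (0.101 and 0.0883). The glycosylases NEIL1 and NEIL2 fell 5.04-fold and 3.16-fold at day 1 (edgeR adjusted p = 0.00017 and 3.8e-05). HMCES, which shields abasic sites in single-stranded DNA, went from 37.4 to 102 CPM at day 1 and back to 38.0 CPM at day 3. The thymine and uracil glycosylase TDG was at 41.9, 94.6 and 85.1 CPM, and its rise passed on both days (edgeR adjusted p = 3.3e-06 and 1.5e-05). On day 3 there were 3 higher and 3 lower genes against uninjured, where 28.8% and 26.4% of all genes were called. Against day 1 there were 8 higher and 1 lower, HMCES, where 30.5% and 28.8% of all genes were called. The counts depended on the method: on day 1 DESeq2 called 2 higher and 2 lower, and library totals alone gave 2 higher and 14 lower. On day 3 against uninjured these gave 2 higher and 0 lower, and 1 higher and 8 lower, and without uninjured replicate 2 edgeR gave 3 higher and 1 lower. Against day 1, the 8 higher became 3 without day 3 replicate 1 and 2 in DESeq2.

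Of the 35 interferon response genes tested, 15 were higher and 8 lower at day 1 and 26 higher and 3 lower at day 3, against 30.5% and 31.7% of all genes at day 1 and 28.8% and 26.4% at day 3. The median log2 change was 0.54 at day 1 and 1.29 at day 3, against -0.06 and -0.03 over all genes; with genes at 0 in the uninjured pair set to their bound, and OAS2 left out on day 1, the medians were 0.37 and 1.29. Without day 1 replicate 1 the day 1 median was 0.15, and DESeq2 called 14 higher and 4 lower on day 1. Library totals alone gave 14 higher and 12 lower on day 1 and 19 higher and 5 lower on day 3. Against day 1, 20 genes were higher and 4 lower on day 3, where 30.5% and 28.8% of all genes were called. Several of these genes were highest on day 3, unlike APOBEC3A. IFI27, a small membrane protein of the interferon response, was at 124, 603 and 1960 CPM in uninjured, day 1 and day 3 samples, and OAS2, an RNA-activated synthetase, had 0, 2 and 173 counts. MX2, a GTPase that restricts viruses, had 0 counts before injury and was at least 20.2-fold higher on day 1 and at least 34.5-fold higher on day 3, against a floor of 3 counts over the group. ISG20, an exonuclease of RNA, resembled APOBEC3A in order: it was at 16.5, 443 and 51.2 CPM, 26.9-fold higher at day 1 (edgeR adjusted p = 2.9e-11) and 8.66-fold lower at day 3 than at day 1 (adjusted p = 5.2e-10).

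Of the 21 NF-kB pathway genes tested, 15 were higher and 2 lower at day 1, with a median log2 change of 1.31 in edgeR, against 30.5% higher and 31.7% lower of all genes. On day 3, 9 were higher and 6 lower than before injury (median -0.01), against 28.8% and 26.4% of all genes, and 2 were higher and 15 lower than at day 1 (median -0.85), where 30.5% and 28.8% of all genes were called. The inflammatory cytokine gene IL1A had 0 counts before injury and was at least 84.5-fold higher at day 1 and at least 33.2-fold higher at day 3. ICAM1, an adhesion molecule, was at 4.68, 43.0 and 25.8 CPM, and the neutrophil attractant CXCL8 at 17.3, 112 and 67.3 CPM. RELB, a subunit of NF-kB, was 4.04-fold higher at day 1 (edgeR adjusted p = 6.4e-06). The inhibitor NFKBIA fell 3.19-fold from day 1 to day 3 (598 to 187 CPM, adjusted p = 7.6e-08), and BIRC3 fell 3.26-fold. TNFAIP3, another inhibitor, rose again from day 1 to day 3, with 15.7, 61.7 and 113 CPM (adjusted p = 2.1e-05). Library totals alone gave 13 higher and 4 lower on day 1, and 7 higher and 10 lower on day 3 against uninjured, where DESeq2 called 5 higher and 1 lower. In that comparison 3 were lower without any 1 of the uninjured or day 3 samples.

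**Figure D5:**
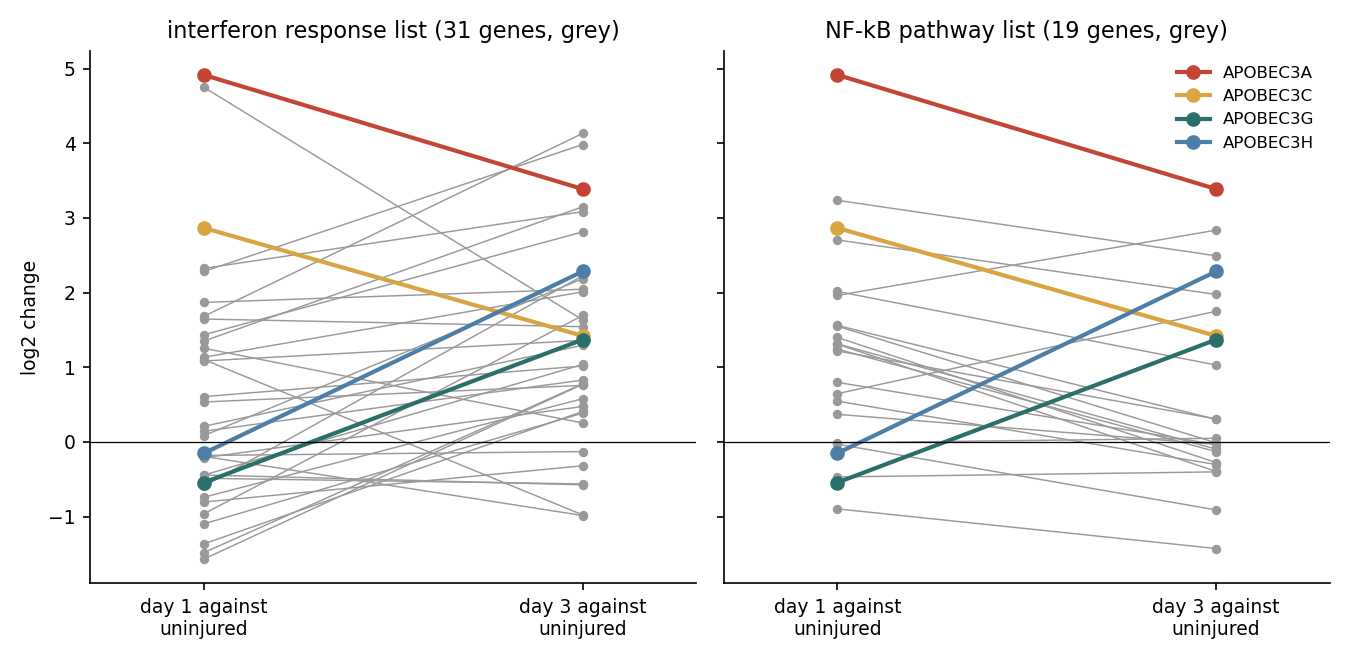
Log2 change at day 1 and at day 3 against the same uninjured samples for 31 interferon response genes (left) and 19 NF-kB pathway genes (right) with counts in uninjured samples (grey), with the 4 APOBEC3 genes drawn in both panels. APOBEC3A and APOBEC3C were higher at day 1 than at day 3, APOBEC3G and APOBEC3H the reverse, and both changes share the uninjured samples.

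Of 14 epithelial differentiation factors tested, edgeR called 5 higher and 7 lower on day 1, 5 higher and 8 lower on day 3, and 6 higher and 7 lower on day 3 than on day 1. Of all genes 62.2%, 55.2% and 59.3% were called in these comparisons, and DESeq2 called 3 higher and 4 lower in the last. PRDM1, a repressor that acts late in epidermal differentiation, was at 2.16, 28.9 and 17.8 CPM, and GRHL3, which acts in barrier formation, at 26.4, 80.4 and 46.5 CPM. ZNF750, a regulator of terminal differentiation, fell 2.98-fold at day 1 (edgeR adjusted p = 1.1e-07) and rose 2.72-fold from day 1 to day 3. TP63, which maintains basal cells, and KLF4, a barrier regulator, were 2.12-fold and 2.09-fold lower at day 3 than in uninjured samples, and EHF was 2.02-fold lower at day 3 than at day 1.

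The genes whose log2 CPM over the 6 samples lay closest to APOBEC3A, among 3701 genes, were CLIC1, NPEPPS, ANXA5, NDRG1 and OXSR1, with Pearson r of 0.999 to 1.000. For APOBEC3C, among 3702 genes, they included MAPK6, SMARCC1, ANXA1 and MAP4K5 (r from 0.998 to 0.999), and APOBEC3A and APOBEC3C had r = 0.971 with each other. The 6 samples are 3 pairs, so these values rest on 3 days. Over 26 sums of a cluster within a sample, after removing each sample's mean, the closest genes to APOBEC3A were VAMP8, RAB11FIP1, MAL2, SMIM5 and NOTCH2 (r from 0.953 to 0.966). For APOBEC3C they were PLXDC2, PPP6R3, EBPL, NUDT8 and KRT3 (r from 0.837 to 0.879). By this measure APOBEC3A and APOBEC3C had r = 0.178 with each other. The clusters of a sample share their library, and no test was made on these values.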

How the data were processed

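Each of the 6 samples has 2 tables, per the labels, of genes by barcode and of isoforms by barcode. The authors deposited every value as a whole-number count, not normalised. Cell Ranger is named in the submitters' processing notes; the aligner, strand setting, build and the kind of reads behind the gene tables were not given in the sources used here.

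Counts were summed per sample, since cells are not replicates, and all 6 sums were fitted in edgeR 4.0.16 (R 4.3.3; TMM, filterByExpr, quasi-likelihood, Benjamini-Hochberg at 0.05) with group alone as covariate. If replicates share an animal, p-values measure technical spread. DESeq2 1.42.0, library totals alone, no filter, a replicate block, and leaving out samples, doublets, barcodes under 500 counts or myeloid-like cells were alternatives, the last added after seeing the data. Cells were clustered in scanpy 1.11.5 (Python 3.11.15, scipy 1.17.1) on 2000 variable genes, AID/APOBEC genes left out, with 30 principal components, 15 neighbours and Leiden (leidenalg 0.10.2) at resolution 0.5; a named cluster had at least 3 higher markers. Isoform tables were read for barcodes of the gene table. The fit was tested on simulated counts. A planned sign-flip test of differentiated-like against basal-like cells is not reported, since the genes were chosen with these levels known.

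The genes, lists and markers were chosen with earlier results of these data known. Named genes were both genes, their family, the 5 most alike by each of 2 measures (average log2 CPM 5 or above), and from each list up to 4 per comparison with the largest change past the threshold, of which a part is printed; 2 of the genes this rule names are not reported here. Sequences were not used here.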

Additional observations from a re-analysis of the deposited data

How the results depend on the processing

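Both genes kept their order of days in every alternative run. With library totals alone the log2 changes of APOBEC3A were 4.58 (day 1 over uninjured), 2.97 (day 3 over uninjured) and -1.61 (day 3 over day 1), and the first 2 of APOBEC3C were 2.53 and 1.00. Leaving out 1 sample gave 4.89 to 4.95, 3.34 to 3.44 and -1.57 to -1.47 for APOBEC3A and 2.81 to 2.93, 1.29 to 1.55 and -1.57 to -1.31 for APOBEC3C; the lone sample left in a group was then assumed to vary like the other groups. Of 12294 genes, 7646, 6792 and 7294 passed in edgeR and 4623, 3590 and 4317 in DESeq2; without 1 sample the counts were 6536 to 7740, 5531 to 7329 and 6178 to 7186. The replicate block gave 7302, 6421 and 6959 genes; replicate numbers carry no stated meaning, and deviations of same-numbered samples had correlations of 0.141, -0.059 and -0.269, so they were not treated as pairs.

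Thinned to 2000 counts, APOBEC3A was found in 21.4% and 26.0%, 85.1% and 86.8%, and 54.4% and 53.9% of cells, and APOBEC3C in 2.24% and 1.84%, 8.23% and 9.33%, and 3.39% and 4.17%; without thinning the shares were 17.9% and 24.3%, 84.2% and 83.0%, 64.9% and 62.6% for APOBEC3A and 2.56% and 3.53%, 11.2% and 11.6%, 7.39% and 8.05% for APOBEC3C. The shares rise with depth, and the order of days held at each depth.

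The mean log2 ratio of differentiated-like to basal-like cells was 4.65 for APOBEC3A and 1.42 for APOBEC3C at Leiden resolution 1.0 and 5.11 and 1.42 without doublets. Clustering within each sample left 2 samples with both classes, at 6.93 and 0.40. Leaving out 1 sample gave 4.36 to 4.62 and 1.18 to 1.74. APOBEC3C had 1 to 9 counts in many clusters, which limits its levels there.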
